A study of Mus musculus with 15 samples.

Results

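The SR splicing factors are nuclear RNA-binding proteins of the Srsf gene family. The genes described here are the 10 members Srsf1, Srsf2, Srsf3, Srsf4, Srsf5, Srsf6, Srsf7, Srsf9, Srsf10 and Srsf11, found in the gene expression table by the Ensembl identifiers that carry these symbols in the mouse annotation. They are 10 of the 54532 gene identifiers in the table. The set was chosen by the FPKM of Srsf7, which was far lower in AA kidneys than in M kidneys, and the other members are its family, so the values of AA vs. M are given as a description with no test. The values of Srsf7 in the other comparisons are given the same way, because those comparisons share 5 libraries with AA vs. M.

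RNA was sequenced from 15 kidneys of male C57BL/6 mice that were 8 weeks old at the start, 5 per group. The C group received normal chow. The M group received chow with 0.25% adenine for 4 weeks, a diet whose metabolite forms crystals in the tubules and leads to tubular injury and fibrosis, and then standard chow in weeks 5 to 8. The AA group received the same diets and was gavaged daily with asiatic acid, a triterpenoid of Centella asiatica, at 30 mg/kg throughout. The C and M groups were gavaged daily with the vehicle alone, DMSO in saline. All libraries were made from poly(A) RNA of whole kidney, so they hold tubular, vascular, interstitial and immune cells together. In such a sample fewer cells of a type and less RNA per cell cannot be told apart.

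SR proteins carry RNA recognition motifs that bind short sequences in exons, and a tail rich in arginine and serine that recruits U1 and U2AF to the neighbouring splice sites. SRPK kinases phosphorylate this tail in the cytoplasm, transportin-SR (Tnpo3) carries the phosphorylated protein into the nucleus, and CLK kinases phosphorylate it further and release it from nuclear speckles. Many Srsf genes limit their own level by splicing in an exon with a premature stop codon, which sends the transcript to nonsense-mediated decay.

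The annotation labels each transcript by class, and whether a decay transcript of a member holds such an exon was not checked. Members have a median of 7.5 annotated transcripts and all protein-coding genes a median of 3, so a given class is more likely to occur in a member. Of the 10 members, 9 have at least 1 transcript annotated as a target of nonsense-mediated decay, compared with 20.7% of the 21995 protein-coding genes in the table, and 8 have at least 1 retained-intron transcript, compared with 41.4%. Srsf7 (ENSMUSG00000024097, GRCm38 chromosome 17, 80200080 to 80207307, minus strand) has 8 annotated transcripts, of which 4 are protein-coding, 1 is a decay target and 3 retain an intron. Srsf10 is the member with no decay transcript. The table holds 1 value per gene, so productive and unproductive transcripts of a member are added together in every value below.

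The 250 bases before the RefSeq start site (GRCm38.p6) are shown for the 3 genes whose levels set the pattern described below, namely Srsf7 and Srsf6, which were low in AA kidneys, and Srsf9, which was high there. Capitals mark matches on either strand to the 5 motifs searched. The first was TATAA, the centre of the TATA box. CCAAT is the box bound by NF-Y. The core that ETS factors bind was searched as CCGGAA. The site of CREB and ATF factors was searched by one arm of it, TGACG. The last motif was the E box CACGTG. None of these motifs contains another.
Srsf7, chr17:80207306-80207555, minus strand: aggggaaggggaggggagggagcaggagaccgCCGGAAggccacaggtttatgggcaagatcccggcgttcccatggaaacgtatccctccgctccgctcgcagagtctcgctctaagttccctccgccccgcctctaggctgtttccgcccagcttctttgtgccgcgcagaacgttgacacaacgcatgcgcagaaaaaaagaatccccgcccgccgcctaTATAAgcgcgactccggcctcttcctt
Srsf6, chr2:162931258-162931507, plus strand: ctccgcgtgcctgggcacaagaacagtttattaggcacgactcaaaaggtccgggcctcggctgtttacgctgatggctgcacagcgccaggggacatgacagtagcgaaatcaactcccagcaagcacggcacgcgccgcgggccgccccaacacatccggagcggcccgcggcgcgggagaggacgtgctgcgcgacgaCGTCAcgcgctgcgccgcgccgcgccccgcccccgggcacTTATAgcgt
Srsf9, chr5:115326927-115327176, plus strand: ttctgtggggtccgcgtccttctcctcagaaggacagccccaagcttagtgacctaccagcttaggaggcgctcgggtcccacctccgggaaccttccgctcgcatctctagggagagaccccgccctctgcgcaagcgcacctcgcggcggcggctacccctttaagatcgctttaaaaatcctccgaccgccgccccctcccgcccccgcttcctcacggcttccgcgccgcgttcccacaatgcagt
The Srsf7 window holds a TATAA match close to the start site and an ETS core farther upstream. The Srsf6 window holds a TATAA match and a CREB and ATF arm, both on the opposite strand. No match to the 5 motifs was found in the Srsf9 window. All 10 members had an entry, and over the family 4 members had TATAA (22.8% of all 32851 windows of this length), 6 had the ETS core (12.03%), 6 had the CREB and ATF arm (17.8%), 3 had the CCAAT box (33.9%) and 0 had the E box (6.02%). GC content was 61.6% in the Srsf7 window, 68.4% in that of Srsf6 and 65.2% in that of Srsf9, beside a median of 52.4% over all windows.

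Counts per gene, recovered from the steps of the low FPKM values, summed to between 13647036 and 28884450 per library, and to between 2077644 and 13576620 without mitochondrial genes, whose share was 53.0% to 62.5% in C kidneys, 64.0% to 86.8% in M kidneys and 69.2% to 87.2% in AA kidneys. M mice 1 to 3 stood apart, with 10068 to 12222 genes above 0, compared with 23040 and 25460 in M mice 4 and 5 and with 18695 to 25251 in the other 10 libraries. The summed FPKM of 7 proximal tubule markers was 111 to 1026 in C kidneys, 7.90 to 31.5 in M kidneys and 16.6 to 30.3 in AA kidneys, and that of 7 leukocyte markers was 14.04 to 71.4, 87.6 to 341 and 69.3 to 123. The 4 distal nephron markers summed to 98.2 to 497 FPKM in C, 10.9 to 84.1 in M and 30.9 to 65.9 in AA, and the 6 fibroblast markers to 61.6 to 139.6, 122 to 424 and 263 to 454, so both lists separated C from AA with no overlap. All 7 tubule markers were above 0 in every C library, while Lrp2, Slc5a2, Slc5a12 and Slc22a6 were at 0 in at least 1 M library and Slc5a2 in at least 1 AA library. The part of these differences in the results below was not tested.

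FPKM, fragments per kilobase of exon divided by a scale factor of each library, is a per-length level that can be compared between genes. In the C group Srsf7 was the most abundant member, followed by Srsf5 and Srsf6, and Srsf4 was the least abundant in all 5 libraries. The Srsf7 level in C kidneys was 14.6, 28.0, 14.96, 19.9 and 19.2 FPKM in mice 1 to 5 (19.3 ± 5.38, SD, n = 5). Srsf5 had 15.2 ± 7.44 and Srsf6 had 13.8 ± 7.06 FPKM, and the values of these 3 neighbours overlapped between mice. Within libraries Srsf7 ranked first in 4 of the 5 C mice and Srsf5 in 1, and the order was not tested. The others ranged from 8.502 ± 2.88 FPKM for Srsf1 to 2.06 ± 0.746 for Srsf4.

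By group means, the M group held the same order of the first 4 members, Srsf7, Srsf5, Srsf6 and Srsf1, with a wider spread. This order held in M mice 4 and 5 and in none of M mice 1 to 3. Srsf2 ranked first in M mouse 2 and Srsf6 in M mouse 3, and Srsf5 and Srsf6 ranked as low as 6 in the M group. Srsf7, whose protein has a zinc knuckle beside its RNA recognition motif and also serves as an adaptor for mRNA export, was at 10.4, 12.2, 11.99, 22.0 and 49.7 FPKM in M mice 1 to 5. M mice 1 to 3 lay under the lowest C mouse and M mouse 5 lay above the highest, so the groups overlapped. Srsf5 showed the same split within the group, with 7.44 to 11.3 FPKM in M mice 1 to 3 and with 19.6 and 43.4 FPKM in M mice 4 and 5.

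In the AA group Srsf7 was at 5.41, 0, 4.15, 3.28 and 4.06 FPKM in mice 1 to 5. All 5 values lay under the lowest value of both other groups. AA mouse 2 is listed at 0 counts, where 3 counts would be 0.0937 FPKM, while the other 4 AA libraries held 221 to 262 counts of Srsf7. That library listed 20 genes at 0, Srsf7 among them, that had at least 1 FPKM in each of the other 14 libraries, and M mouse 2 listed 174 such genes, so the 0 is given as listed and no mean FPKM of Srsf7 is given for the AA group. The log2 fold changes of Srsf7 below use that 0, and their values without AA mouse 2 are given beside them.

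Srsf9, a member with a short arginine and serine tail, took the opposite course. It had 5.74, 3.25, 3.49, 5.38 and 3.24 FPKM in C mice 1 to 5. The M mice, in the same order, had 2.82, 9.61, 5.21, 6.95 and 9.23 FPKM. In AA mice 1 to 5 it had 8.71, 14.96, 11.2, 18.3 and 10.7 FPKM. The AA values lay above all C values and overlapped with those of M mice 2 and 5.

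**Figure D1:**
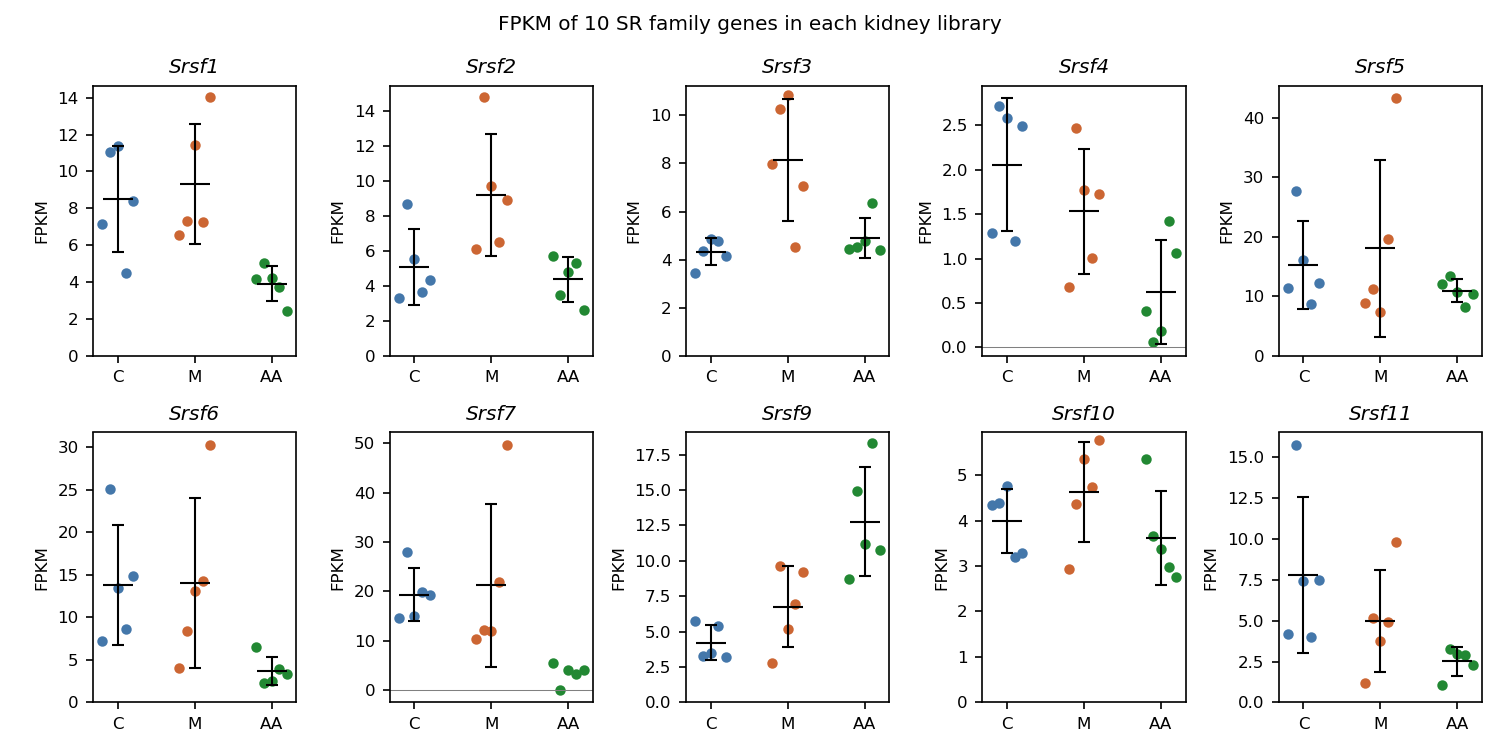
FPKM of each SR family gene (y axis, linear, a separate scale per gene) in the C, M and AA groups (x axis). Each point is 1 mouse, and the black bars are the mean and SD of 5 mice, left out for Srsf7 in AA kidneys because 1 library is listed at 0. Srsf7 lay at 0 to 5.41 FPKM in AA kidneys and at 10.4 or more in both other groups, and Srsf9 was at 8.71 or more in AA kidneys and at 5.74 or less in C kidneys.

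M vs. C asks what the adenine diet changed. None of the 10 members passed the thresholds of an adjusted p of at most 0.05 and an absolute log2 fold change of at least 1 (limma on log2(FPKM + 1), Benjamini-Hochberg over 21153 genes), beside 1.38% of all genes tested, and all 10 overlapped between the groups, where 4.72% of all genes did not. The weighted fit of the recovered counts (voom), which scales each library to its total count with mitochondrial genes included, also called none. At an unadjusted p under 0.05 there were 2 of the 9 members tested, Srsf2 and Srsf3, beside 16.5% of all genes. Srsf2, a component of nuclear speckles, had a log2 fold change of 0.74 ± 0.32 (SE, n = 5 per group, limma adjusted p = 0.273). Srsf3, the smallest member, was at 3.46 to 4.86 FPKM in C kidneys and at 8.00, 10.3, 10.9, 4.54 and 7.07 FPKM in M mice 1 to 5 (log2 fold change 0.74 ± 0.28, limma adjusted p = 0.218). Without M mice 4 and 5, Srsf3 passed both thresholds with a log2 fold change of 1.00, the only member to do so. The calls over all genes also rose in that subset, as given in the last section. Under TPM, which puts the mitochondrial share back into the scale, all 10 log2 fold changes were negative, compared with 4 of 10 on the deposited scale, and again none passed. The median of all genes also fell under TPM, as given in the last section, so these signs are not particular to the family. Srsf7 itself had a log2 fold change of -0.08 ± 0.41, which was 0.78 with M mice 4 and 5 only.

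AA vs. M asks what asiatic acid changed in adenine-fed mice, and is the comparison from which Srsf7 was chosen. The log2 fold change was negative in 9 of 10 members, and Srsf9 was the exception. Srsf7 had the lowest value, -2.33 ± 0.54 (SE, n = 5 per group), followed by Srsf6 with -1.48 ± 0.44 and Srsf1 with -1.04 ± 0.31. Of the 9 members other than Srsf7, these 2 lay past both thresholds, beside 12.8% of the 19798 genes tested, or 1.07% counted in the lower direction alone. Since this comparison chose the family, nothing is read from that count. Srsf9 had a log2 fold change of 0.88 ± 0.35. The family median was -0.65, and that of all genes was 0.17.

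Srsf6, a member with a long arginine and serine tail, was at 4.01, 8.44, 13.1, 14.2 and 30.3 FPKM in M mice 1 to 5. In AA mice 1 to 5 it was at 6.49, 2.31, 2.55, 3.87 and 3.32 FPKM. AA mouse 1 lay above M mouse 1, and the other 4 AA mice lay under all M mice. Srsf1, the first SR protein described as a splicing factor and also a promoter of nonsense-mediated decay, was at 6.58, 7.32, 11.4, 7.28 and 14.05 FPKM in M mice 1 to 5. It was at 4.18, 5.05, 4.21, 3.74 and 2.41 FPKM in AA mice 1 to 5, with no overlap. Srsf2 did not overlap either, at 6.09 to 14.8 FPKM in M kidneys and 2.65 to 5.68 in AA kidneys, although its log2 fold change of -0.90 ± 0.32 was under the fold threshold. Srsf1 and Srsf2 were thus 2 of the 9 members other than Srsf7 that were lower in AA kidneys with no overlap, a description only, where the share of all genes was 1.31%.

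The other 5 members, Srsf3, Srsf4, Srsf5, Srsf10 and Srsf11, had log2 fold changes between -0.66 and -0.29, and their groups overlapped. For Srsf5 the direction depended on the M libraries, with a log2 fold change of -1.35 against M mice 4 and 5 alone and 0.23 against M mice 1 to 3 alone. The value of Srsf7 was -1.75 against M mice 1 to 3 alone and -1.85 without AA mouse 2, both closer to 0 than with all 10 libraries. Srsf1 and Srsf6 lay past both thresholds in 4 of the 10 fits that left out 1 library each. Under TPM and in voom no member passed, and the log2 fold changes of Srsf7 there were -2.37 and -3.91. At a pseudocount of 0.01, which gives the listed 0 more weight, that of Srsf7 was -3.81 in AA vs. M and -3.91 in AA vs. C.

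**Figure D2:**
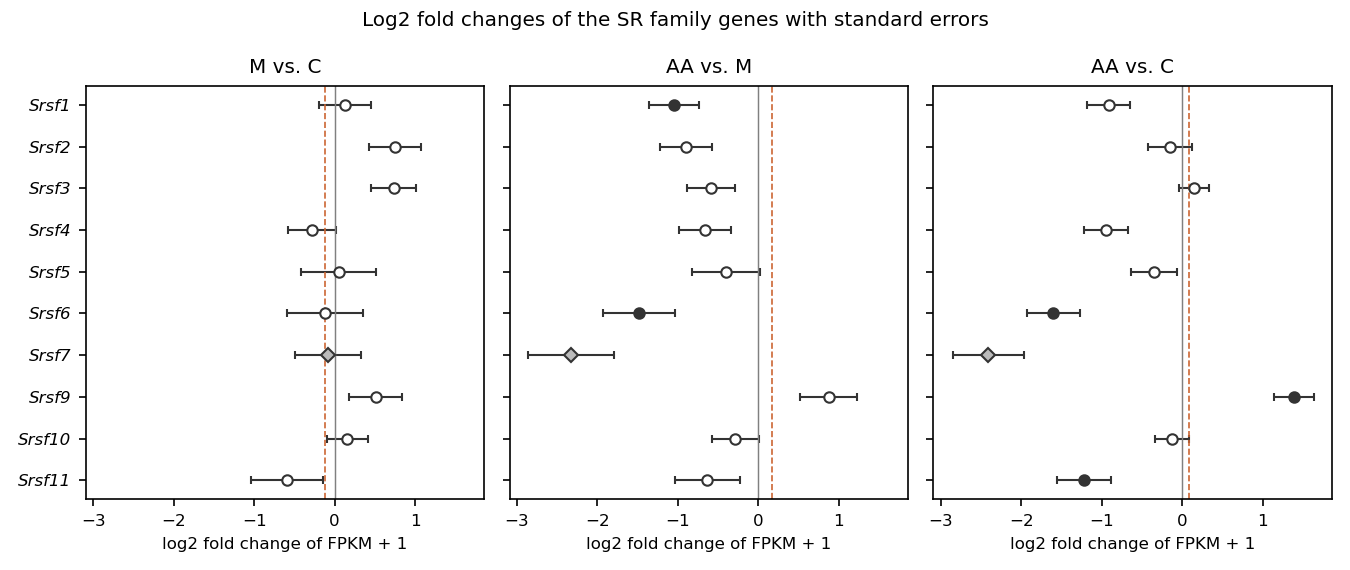
Log2 fold change of FPKM + 1 (x axis) of each SR family gene (y axis) in the 3 comparisons, with its standard error from limma. Filled circles lie past both thresholds, the grey diamond is Srsf7, which carries no test, and the dashed line is the median of all genes tested. In M vs. C no circle is filled, while Srsf7 lies at -2.33 in AA vs. M and -2.41 in AA vs. C, and Srsf9 lies at 0.88 and 1.39. The directions of Srsf7 and Srsf9 in these 2 comparisons were the same under every scaling tried.

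AA vs. C compares the treated kidneys with those on normal chow. Srsf6 fell, with a log2 fold change of -1.60 ± 0.33 (SE, n = 5 per group, limma adjusted p = 0.00392). The C values of Srsf6 were 7.20, 25.1, 13.4, 8.65 and 14.8 FPKM in mice 1 to 5, all above the highest AA value of 6.49. Srsf11, a more distant family member that binds U2AF, fell by 1.22 ± 0.34 on the log2 scale (limma adjusted p = 0.0155). It was at 3.99 to 15.8 FPKM in C kidneys and at 1.08 to 3.27 in AA kidneys, with no overlap. Its log2 fold change was -0.95 without C mouse 2, under the fold threshold.

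Srsf9 rose, with a log2 fold change of 1.39 ± 0.25 (limma adjusted p = 0.00191), and was higher in all 5 AA mice than in any C mouse. On the TPM scale its log2 fold change was 0.45 and in voom 0.65, neither past the thresholds, in the same direction. Srsf7 had a log2 fold change of -2.41 ± 0.44, and of -1.94 without AA mouse 2, given with no test.

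Of the 9 members tested, 3 passed both thresholds (1 higher, 2 lower), beside 19.8% of the 21898 genes tested, namely 10.2% higher and 9.61% lower. The same 3 were those of the 9 that did not overlap, beside 24.0% of all genes. Counted with Srsf7, the number of lower members was 3, and it was 8 under TPM and in voom and 5 after centring every library on its own median. The calls over all genes also rose under TPM and in voom, as given in the last section, so the 8 cannot be set against the 9.61%. Srsf1 (-0.91 ± 0.26, limma adjusted p = 0.0186) and Srsf4 (-0.95 ± 0.28, limma adjusted p = 0.02004) passed the adjusted p but not the fold threshold. Srsf4 was at 0.412, 0.0623, 0.187, 1.42 and 1.06 FPKM in AA mice 1 to 5, of which the value of mouse 2 was 2 counts. It was at 1.20 to 2.72 FPKM in C kidneys, so AA mouse 4 overlapped with C mice 1 and 4.

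Srsf2, Srsf3, Srsf5 and Srsf10 did not pass, with log2 fold changes between -0.35 and 0.15 and limma adjusted p from 0.350 to 0.676. Srsf10, which represses splicing when it is dephosphorylated, was at 3.99 ± 0.706, 4.63 ± 1.10 and 3.62 ± 1.03 FPKM in C, M and AA. Srsf3 had the smallest spread in C kidneys, 4.33 ± 0.565 FPKM, and was at 4.91 ± 0.823 FPKM in AA kidneys. The Srsf3 direction turned from 0.15 to -0.81 under TPM.

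The share of each member within its family is a measure that needs no library size. Srsf7 made up 17.7% to 31.1% of the summed FPKM of the 10 members in C kidneys, 14.2% to 27.6% in M kidneys and 0% to 10.1% in AA kidneys. It ranked first or second in all 10 C and M libraries and no higher than rank 4 in all 5 AA libraries. Srsf9 made up 2.48% to 9.15% in C kidneys, 5.13% to 11.2% in M kidneys and 16.2% to 32.4% in AA kidneys, where it ranked first in 4 libraries and second in AA mouse 1, after Srsf5. These shares rest on Srsf7 as chosen and carry no test.

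The ratio of Srsf9 to Srsf7 was 0.116 to 0.392 in C kidneys and 0.186 to 0.789 in M kidneys, so in all 10 of these libraries Srsf7 was the more abundant. In the AA group it was 1.61, 2.69, 5.57 and 2.65 in mice 1, 3, 4 and 5, and it could not be formed in mouse 2, where Srsf7 is listed at 0. The sum of the other 9 members without Srsf7 was 65.1 ± 23.5 FPKM in C kidneys, 76.7 ± 32.6 in M kidneys and 47.4 ± 5.16 in AA kidneys (SD, n = 5 each), so the AA values of 40.0 to 53.2 overlapped with those of both other groups.

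**Figure D3:**
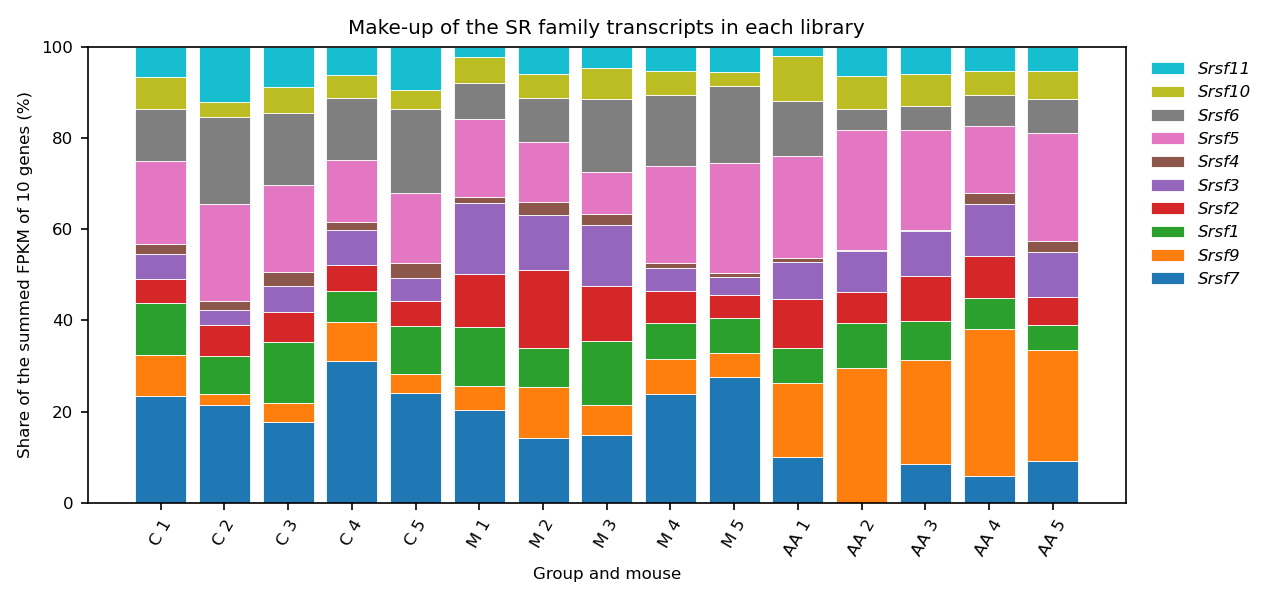
Share of the summed FPKM of the 10 SR family genes taken by each gene (y axis, %), in each of the 15 libraries (x axis, group and mouse). Srsf7, the lowest segment, took 17.7% to 31.1% in C kidneys and 0% to 10.1% in AA kidneys, and Srsf9, the segment above it, took 2.48% to 9.15% and 16.2% to 32.4%.

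Some members share sequence with other genes, which could affect how their reads were assigned. Of all 31-base stretches in the transcripts of each member, 2.43% for Srsf7, 1.22% for Srsf1, 0.873% for Srsf11 and 0% for Srsf6 and Srsf9 also occur in a transcript of another gene. The share was 11.97% for Srsf10, 13.9% for Srsf3, 14.2% for Srsf5, 23.1% for Srsf2 and 41.0% for Srsf4, so the levels of these members are less certain. Srsf2 overlaps Mfsd11 and Mettl23 on the opposite strand, Srsf1 overlaps Gm11508 and Srsf4 overlaps Gm12992, and the library protocol given does not mark strand, so reads there could not be told apart. Srsf11 overlaps Gm43362 and Srsf4 overlaps A930004J17Rik on the same strand, and whether reads there were left out or given to a gene is not known. Srsf6, Srsf7 and Srsf9 overlap no annotated gene.

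The enzymes that phosphorylate and import SR proteins were compared as a list of 10. None of them passed by limma in M vs. C (2 at an unadjusted p under 0.05, and 1 called lower by voom) or in AA vs. M (3 at an unadjusted p under 0.05, and 0 called by voom). In M vs. C 16.5% of all genes had an unadjusted p under 0.05. The 3 in AA vs. M have no such share beside them, so nothing is read from them. The calls of voom over all genes are given in the last section. In AA vs. C, 5 of 10 fell, where 9.61% of all genes did, and none rose past both thresholds. The import receptor gene Tnpo3, named after its value was seen, was higher in AA kidneys with no overlap, at 0.935 ± 0.180 FPKM in C and 2.73 ± 0.857 in AA. Its log2 fold change of 0.92 ± 0.21 (limma adjusted p = 0.00541) missed the fold threshold, and it passed at a pseudocount of 0.1 or 0.01. The genes that fell were the 4 CLK kinases and Prpf4b, a kinase of the tri-snRNP. Clk4 was at 5.00 to 18.6 FPKM in C kidneys and at 0.193 to 0.708 in AA kidneys (log2 fold change -2.76 ± 0.29, limma adjusted p = 0.000161). Clk2 had a log2 fold change of -2.38 ± 0.29 (limma adjusted p = 0.000286) and Clk3 of -1.94 ± 0.28 (limma adjusted p = 0.000632). All 3 passed under each of the 12 other settings tried. In M mice 1 to 5 Clk4 was at 0.327, 1.63, 2.41, 5.88 and 14.4 FPKM, so M mice 4 and 5 lay within the C range and M mice 1 to 3 under it. Against M mice 4 and 5 alone, 5 of the 10 genes passed as lower in AA kidneys, and against M mice 1 to 3 alone 0 did. In M vs. C, 3 of the 10 passed as lower in M mice 1 to 3 alone, where the calls over all genes also rose. With M mice 4 and 5 alone 0 did, but then no gene in the whole table passed, so nothing is read from that 0. The subset counts of AA vs. M have no share of lower genes beside them, so nothing is read from the 5 and the 0. The calls over all genes against M mice 4 and 5 alone, in both directions together, are given in the last section.

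Among 16 SR-related regulators tested of 17 listed, none passed by limma in M vs. C (2 at an unadjusted p under 0.05, and 2 called lower by voom). Of all genes 16.5% had an unadjusted p under 0.05 there, and the calls of voom over all genes are given in the last section. In AA vs. M 2 of the 16 fell, where 1.07% of all genes did. In AA vs. C 8 fell and 1 rose, where the shares of all genes were 9.61% and 10.2%. Tra2a, which binds exonic enhancers much as the SR proteins do, had a log2 fold change of -1.57 ± 0.36 in AA vs. M (limma adjusted p = 0.0104) and of -1.75 ± 0.27 in AA vs. C (limma adjusted p = 0.000828). Rbm39, a partner of U2AF, had -1.49 ± 0.29 in AA vs. M (limma adjusted p = 0.00500). Sfswap, which regulates its own splicing, had -2.30 ± 0.29 in AA vs. C (limma adjusted p = 0.000315), and Luc7l, related to a yeast U1 component, had -1.76 ± 0.26 (limma adjusted p = 0.000712). Luc7l3 was the gene that rose, with 1.39 ± 0.36 (limma adjusted p = 0.0119), and is named after its value was seen. Its AA and C values overlapped. Neither Rbm39 nor Tra2a passed in AA vs. M under TPM, and Tra2a did not in voom.

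The hnRNP family, which often opposes SR proteins at the same exons, had 3 of 25 members lower in AA vs. M, where 1.07% of all genes were, and 3 of 25 lower in AA vs. C, a share of 12% that lies near the 9.61% of all genes. Hnrnph1 was in both counts, with log2 fold changes of -1.56 ± 0.39 (limma adjusted p = 0.0147) and -1.80 ± 0.30 (limma adjusted p = 0.00129). Hnrnpd had -1.22 ± 0.27 and Hnrnpa2b1 -1.17 ± 0.28 in AA vs. M, while Hnrnph3 had -2.08 ± 0.33 and Hnrnpu -1.24 ± 0.21 in AA vs. C. In AA vs. M none of these passed under TPM, and Hnrnpa2b1 alone passed in voom. The comparisons share the AA libraries, so the counts are given side by side only.

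Of 28 core spliceosome genes tested of 29 listed, 1 fell in AA vs. M, the Sm protein gene Snrpe (-1.65 ± 0.34, limma adjusted p = 0.00703), which passed neither under TPM nor in voom. In AA vs. C 6 of the 28 fell, where 9.61% of all genes did, among them Sf3a2 (-1.85 ± 0.34), Snrpa (-1.77 ± 0.30) and Prpf3 (-1.46 ± 0.22). Of 13 genes of the exon junction complex and nonsense-mediated decay, none passed by limma in AA vs. M (2 at an unadjusted p under 0.05, and 0 called by voom). The 2 have no share of all genes beside them, so nothing is read from them. In AA vs. C 1 of the 13 fell, Smg5 (-1.73 ± 0.29, limma adjusted p = 0.00133), a share of 7.69% that lies near the 9.61% of all genes. None of the hnRNP, core or decay genes passed by limma in M vs. C, where 1, 3 and 2 of them had an unadjusted p under 0.05 and voom called 0, 1 and 2 of them lower. Of all genes 16.5% had an unadjusted p under 0.05 there, and the calls of voom over all genes are given in the last section. The median log2 fold change in AA vs. C was -0.78 for the kinase list, -1.01 for the SR-related list, -0.25 for the hnRNPs, -0.62 for the core genes and -0.27 for the decay genes, beside -0.63 for the SR family and 0.09 for all genes. On the TPM scale these counts of lower genes in AA vs. C were 7, 14, 17, 20 and 11. The calls over all genes also rose under TPM, as given in the last section, so these counts cannot be set against the 9.61%.

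**Figure D4:**
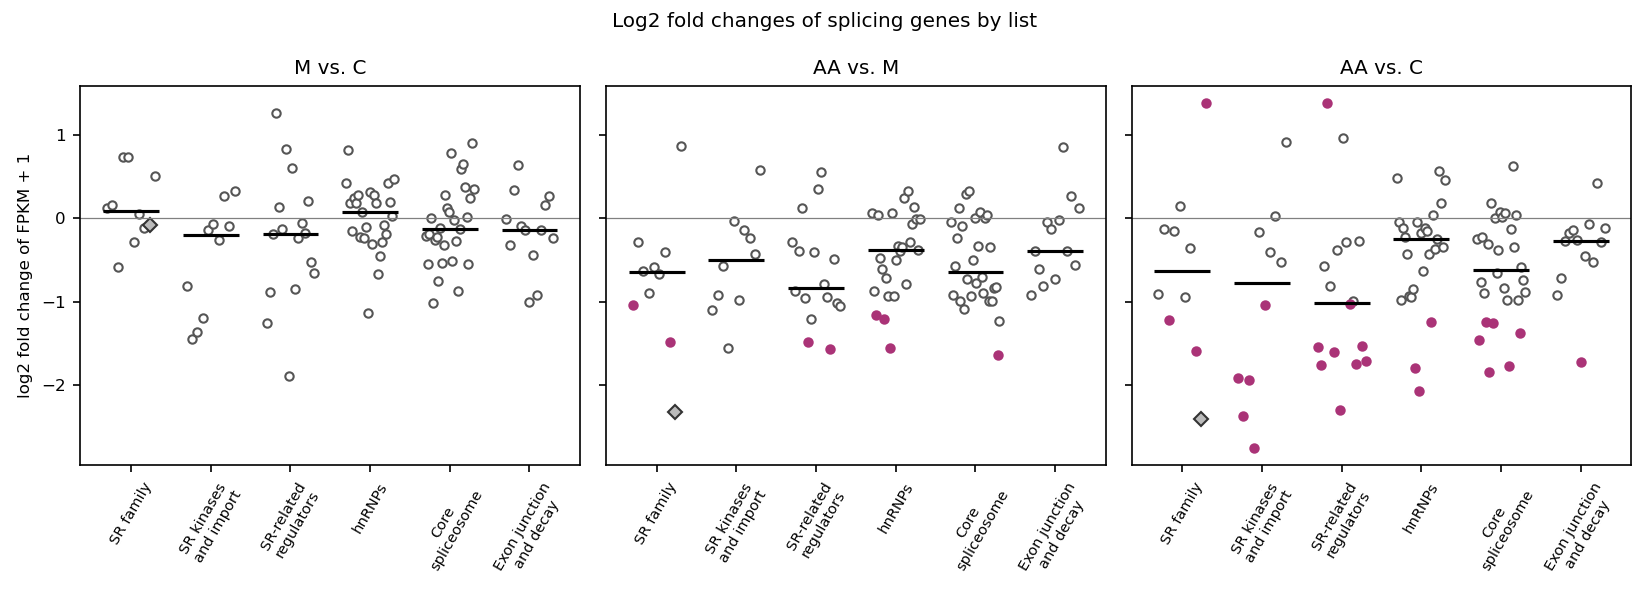
Log2 fold change of FPKM + 1 (y axis) of the genes of 6 splicing lists (x axis) in the 3 comparisons. Each point is a gene, filled where it lies past both thresholds (a grey diamond for Srsf7, which carries no test), and the black line is the median of the list. No gene is filled in M vs. C. The 5 filled genes of the kinase list and 8 of 9 in the SR-related list lie under 0 in AA vs. C. On the TPM scale the medians of all 6 lists in M vs. C were negative, and the median of all genes fell as well.

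The genes outside the family whose profile over the 15 libraries was most like that of Srsf7 were sought among 9035 protein-coding genes with a mean of at least 1 FPKM, as the root mean square difference of standardized log2(FPKM + 1). Creld2, an endoplasmic reticulum protein, had the smallest difference, 0.300, followed by Atf4, a transcription factor of the integrated stress response, with 0.393, the phosphatase gene Ilkap with 0.409, the clathrin adaptor gene Ap2s1 with 0.410 and the histone deacetylase gene Hdac1 with 0.412. The median over all genes was 1.26. Creld2 was at 9.39 to 15.1 FPKM in C kidneys, 5.04 to 16.4 in M kidneys and 0.649 to 4.09 in AA kidneys. Atf4 was at 14.9 to 28.3, 14.5 to 29.0 and 3.67 to 11.7 FPKM. The nearest family member, Srsf6, had a difference of 0.486 and ranked 40, and Srsf9 ranked 8528 with 1.74, close to the far end of the list, whose highest value was 1.88. The points share their libraries and the depth of these, and the ranking is a description. The Srsf7 profile includes the listed 0 of AA mouse 2, which favours genes that are low in that library. The ranking without that library was not made.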

How the data were processed

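Kidney RNA of 15 mice (5 per group) was sequenced by the authors from poly(A) libraries. Per the labels, the submitters' processing notes name fastp, HISAT2 2.0.5, featureCounts 1.5.0-p3 and mm10. The authors deposited FPKM per gene, the unit used here. Their scale followed size factors more than plain totals. Of the 54532 identifiers, 54495 matched GENCODE M21.

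Each comparison was fitted with limma 3.58.1 (R 4.3.3, intensity trend) on log2(FPKM + 1), in its 10 libraries, over genes above 0 in at least 5, with Benjamini-Hochberg adjustment. Fold changes understate the change of low genes on this scale. The fit was run on counts simulated from C group means at the depth of each library, with a common spread setting for all genes. The mitochondrial shares and the low gene detection of some M libraries were not simulated, so that run shows only that the fit works on simple data. Thresholds (adjusted p at most 0.05, absolute log2 fold change at least 1) were those of the study, whose count test was not run. Counts were recovered from FPKM steps: 97.6% to 98.9% of low values were whole within 0.02. Whether they are reads or fragments is not settled, and they cover counting error only.

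Named genes were all members, at most 3 called genes per list and comparison with the largest absolute change, and the 5 protein-coding genes most like Srsf7. Members and lists were chosen with earlier results of these data known. Samples of a group are separate mice. Alternatives were pseudocounts, filters, scalings, a single fit of 15 libraries, voom, a replicate block, subsets of M mice, and leaving out each library. TPM and voom both scale to totals that include the mitochondrial genes, so they are not independent checks of each other.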

Additional observations from a re-analysis of the deposited data

Results flagged for a closer look

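Srsf3 in the AA group had 1 mouse far from the others, AA mouse 4 with 6.36 FPKM, where the nearest of the other 4 had 4.78 FPKM. The gap was 0.805 of the group's range, above Dixon's critical value of 0.71 for 5 samples. Of the 30 combinations of member and group examined this was the only one, and chance alone flags about 1 in 20. Without this mouse the Srsf3 log2 fold change in AA vs. C was 0.06, compared with 0.15 with it.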

How the results depend on the processing

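The counts below include Srsf7, whose own values carry no test. In M vs. C the number of members called was 0 under every setting tried but that with M mice 1 to 3 only, where it was 1 (Srsf3), and 0 to 0 with each library left out. For AA vs. M, from which Srsf7 was chosen, the number past both thresholds is a description only, and nothing is read from it. The calls over all genes under TPM and in voom are given in the paragraph after next. The number of members was 3, and 5 after centring every library on its own median. Under TPM and in voom it was 0, and with the replicate block 1. When each library was left out it ranged from 1 to 3 (1 without M mouse 3 or AA mouse 3, 4 or 5). Over the other settings of AA vs. M it was 2 to 4. In AA vs. C it was 4, and it was 8 under TPM and 8 in voom, with a range of 3 to 6 over left-out libraries (3 without C mouse 2, where Srsf11 was lost, and 6 without C mouse 4). The cause was not tested.

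Directions in M vs. C turned under TPM for Srsf1 (-0.81), Srsf2 (-0.14), Srsf3 (-0.15), Srsf5 (-0.91), Srsf9 (-0.34) and Srsf10 (-0.70), and in voom for the same 6 (-0.73, -0.069, -0.042, -0.82, -0.22 and -0.66). They turned under quantile normalization for Srsf6 (0.21) and Srsf7 (0.22), with centring for Srsf4 (0.079), Srsf6 (0.25) and Srsf7 (0.28), with M mice 4 and 5 only for Srsf6 (0.68), Srsf7 (0.78) and Srsf11 (0.013), and with M mice 1 to 3 only for Srsf5 (-0.58). In AA vs. M, Srsf5 turned with M mice 1 to 3 only (0.23). In AA vs. C, Srsf3 turned under TPM (-0.81), in voom (-0.78) and with centring (-0.0078). With 1 library left out, M vs. C ranged from -0.056 to 0.24 for Srsf1, from -0.33 to 0.28 for Srsf5, from -0.44 to 0.22 for Srsf6 and from -0.44 to 0.093 for Srsf7, and AA vs. C from -0.26 to 0.030 for Srsf2.

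Over all genes the calls in M vs. C moved from 291 to 1609 under TPM, 1818 in voom, 786 in the fit of 15 libraries, 152 with the block, 110 at a pseudocount of 0.01, 33 with no filter, 448 at a mean FPKM of at least 1, 0 with M mice 4 and 5 only (2489 at an unadjusted p under 0.05) and 3404 with M mice 1 to 3 only. In AA vs. M they moved from 2533 to 422 under TPM, 1679 in voom and 1656 with M mice 4 and 5 only, and in AA vs. C from 4346 to 6785 under TPM, 8569 in voom and 7474 at a pseudocount of 0.1. Leaving out single libraries gave 4 (without C mouse 5) to 954 (without M mouse 5) in M vs. C. The share of calls that were higher was 19.6% in M vs. C (1.93% under TPM, 38.9% centred), 91.6% in AA vs. M (69.5% under quantile normalization, 43.1% centred) and 51.6% in AA vs. C (12.7% under TPM, 18.5% in voom, 40.1% centred). The median of all genes moved from -0.12 to -0.58, from 0.17 to 0.12 and from 0.09 to -0.39 under TPM.

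Mice with the same number did not deviate together (correlations from -0.13 to 0.22), so the numbers do not pair the samples. With the replicate block the members past both thresholds were 0 in M vs. C, 1 in AA vs. M and 4 in AA vs. C. These counts include Srsf7. Low depth limits Srsf4, with 2 to 104 counts in the AA group.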
